A study of Homo sapiens with 40 samples.

Results

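The zinc finger clusters of 19p13.2 are 2 blocks of zinc finger genes on the short arm of human chromosome 19. The members were 36 genes chosen by symbol from the 62486 gene identifiers of the count table. Together with them were taken all peaks of 5 chromatin features and the 39 bins of 100 kb in chr19:8900000-12800000 (GRCh37), a window of 3900 kb. The first block held 12 members from ZNF558 to ZNF846, and the second held 24 members from ZNF653 to ZNF791. The rule uses symbols and positions, not measured values, although it was set with earlier results of these data known.

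The values come from A549, an established human lung adenocarcinoma cell line. In the knockout (KO) cells, SETDB1 was disrupted with CRISPR/Cas9 and a guide RNA delivered in the plasmid PX458. The labels do not say what the control cells received, or whether the KO line is 1 clone. The members were measured by RNA-seq in 3 libraries per genotype, by ChIP-seq in 2 libraries per genotype for each of H3K9me3, H3K4me3, H3K27ac, H3K27me3 and CTCF, and by Hi-C in 2 libraries per genotype. The labels do not state that libraries of a genotype came from separate cultures, so p-values measure only the spread between these libraries, which may be technical.

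Most genes of these clusters encode KRAB zinc finger proteins, a large family of DNA-binding repressors that grew by tandem duplication. Their KRAB domain binds TRIM28 (KAP1), which brings in SETDB1, the methyltransferase that places H3K9me3, and HP1 proteins that bind the mark. The zinc finger clusters of chromosome 19 are themselves known for broad H3K9me3 over the gene bodies, and ZNF274 is known to bring SETDB1 to the 3′ ends of zinc finger genes.

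The RNA-seq libraries held 18065062 to 48364919 counts. SETDB1 itself (ENSG00000143379) stood at 37.5, 39.6 and 38.8 CPM (counts scaled to library size but not to transcript length) in control libraries and at 23.4, 21.2 and 21.1 CPM in KO libraries. The KO libraries were all below the controls. The log2 fold change was -0.82 (SE 0.060, edgeR quasi-likelihood test, adjusted p = 1.7e-12). All 5 epithelial markers and all 5 markers of A549 with active NRF2 had a mean above 1 CPM. The epithelial markers summed to 3000 to 3270 CPM in control and 9210 to 9940 CPM in KO libraries. Fibroblast markers summed to 3.48 to 3.61 CPM in control and 4.71 to 4.99 CPM in KO, with COL1A2 and DCN at 0. Leukocyte markers summed to 5.56 to 6.02 and 4.32 to 5.75 CPM, with CD3E at 0. The 4 endothelial markers found of 5 summed to 0.297 to 0.412 and 4.15 to 5.40 CPM. The part of these shifts in the results on the members was not tested. In bulk RNA, fewer cells with a transcript and less transcript per cell cannot be told apart.

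The 36 members summed to 247, 241 and 243 CPM in the control libraries and to 517, 488 and 500.4 CPM in the KO libraries. A count was found for 23 members in each control library and for 36 members in each KO library. Of the 36 members, 31 passed the filter on low counts, 30 of these were higher in KO and 0 were lower (edgeR quasi-likelihood test, Benjamini-Hochberg adjusted p under 0.05). Of all 17767 genes tested, 32.8% were called higher and 30% lower. At least 2-fold higher were 22 of the 31 tested members, against 9.86% of all genes tested. The median log2 fold change was 1.72 over the tested members and 0.00 over all genes tested. For 30 of the 31 tested members, every KO library lay above every control library, as it did for 34.1% of all genes tested. These counts over the tested members are a description, because 11 of them passed the filter only through their KO libraries. Of the 20 members with over 5 counts in the control libraries together, 19 had control levels clear of the filter, and all 19 rose. The other, ZNF564, had low counts in both genotypes (24 control and 42 KO counts) and was not called.

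**Figure D1:**
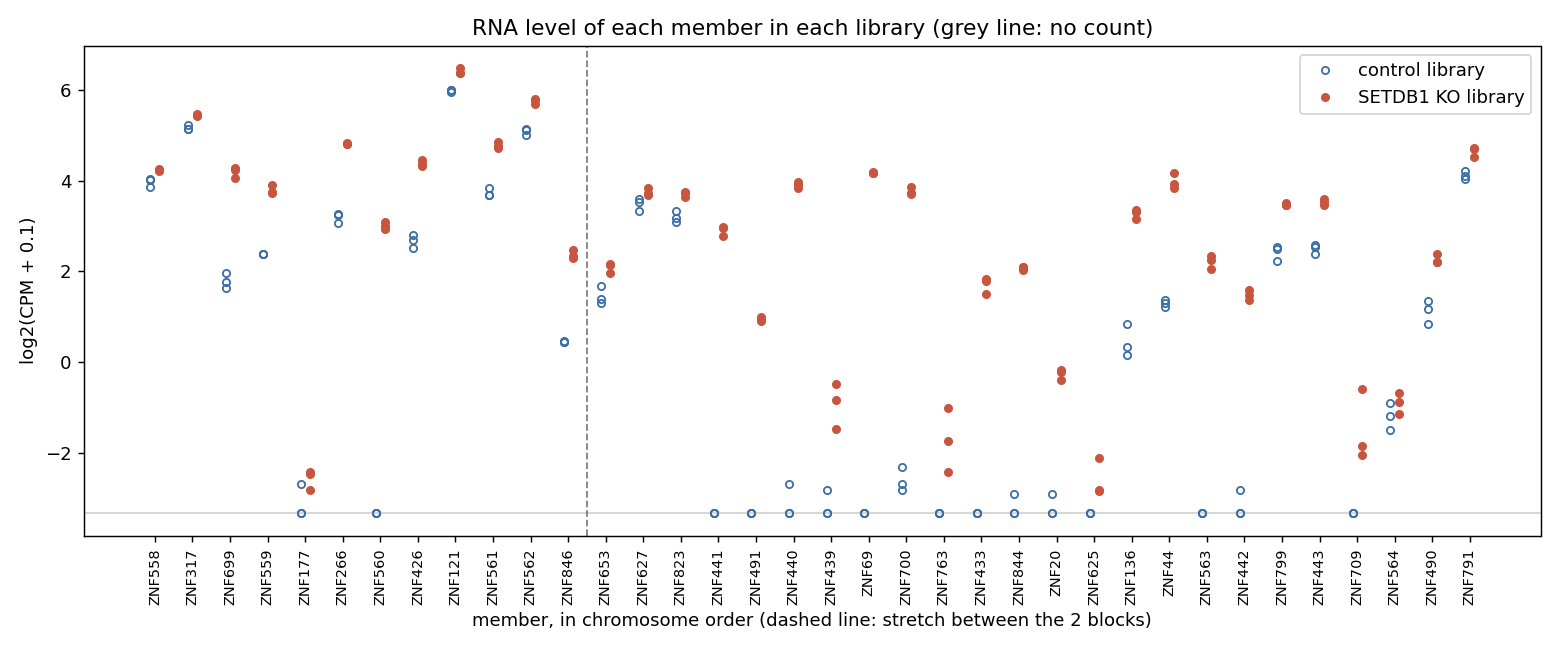
RNA level of the 36 members in each library as log2 of CPM with 0.1 added, in chromosome order, with open points for the 3 control and filled points for the 3 KO libraries. The members whose control points lie on or just above the grey line of no counts are mostly in the second block, where 8 members had no count in any control library.

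The members fell into classes by their control level, defined after the values were seen. No control library held a count for 9 members, 8 of them in the second block and 1, ZNF560, in the first. Another 7 members had 1 to 5 control counts in all. Of these, 6 with no control count and 5 with 1 to 5 counts were tested. They passed the filter only through their KO libraries, so their rise was fixed in advance. Their adjusted p-values below are given as description only. Their fold changes are given as lower bounds against 3 counts over the control libraries (0.0424 CPM), or, for 1 to 3 control counts, as ratios of summed counts with exact 95% intervals that cover counting error only. ZNF700, with 5 control counts, is given by its fitted change. Zinc finger genes of a cluster are paralogs that can share reads, and how the counting treated such reads is not given in the sources used here, so their split among close paralogs is uncertain.

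ZNF69 (ENSG00000198429) had 0 counts in each control library and 416, 880 and 402 counts in the KO libraries. The KO libraries stood at 18.2, 17.9 and 17.9 CPM, clear of the controls. The gene was at least 423-fold higher in KO (edgeR adjusted p = 7.28e-22). Its neighbour ZNF439 (ENSG00000171291), which the filter on low counts removed, had 1, 0 and 0 counts in control and 6, 23 and 14 counts in KO libraries, or 0.262, 0.467 and 0.624 CPM in KO. The KO libraries lay above the control libraries, at a ratio of 32.2 (95% interval 5.47 to 1299). The 300 bases around the start of the 2 genes, 250 before and 50 after, had the highest identity of 663 pairs of member promoters. Of these bases, 259 were identical (86.3%), against a median of 152 (50.7%) over all pairs. Both are printed 5′ to 3′ from RefSeq on GRCh38.p14 (ZNF69 at chr19:11887532-11887831, plus strand, ZNF439 at chr19:11848476-11848775, plus strand), with each CpG in capitals. They are shown because these similar starts belong to members with very different levels in KO.
ZNF69: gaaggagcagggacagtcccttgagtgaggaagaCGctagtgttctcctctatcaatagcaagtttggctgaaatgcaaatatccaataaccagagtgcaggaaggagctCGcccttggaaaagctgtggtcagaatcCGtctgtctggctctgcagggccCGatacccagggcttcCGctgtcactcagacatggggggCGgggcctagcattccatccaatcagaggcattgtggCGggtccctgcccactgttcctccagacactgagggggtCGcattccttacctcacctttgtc
ZNF439: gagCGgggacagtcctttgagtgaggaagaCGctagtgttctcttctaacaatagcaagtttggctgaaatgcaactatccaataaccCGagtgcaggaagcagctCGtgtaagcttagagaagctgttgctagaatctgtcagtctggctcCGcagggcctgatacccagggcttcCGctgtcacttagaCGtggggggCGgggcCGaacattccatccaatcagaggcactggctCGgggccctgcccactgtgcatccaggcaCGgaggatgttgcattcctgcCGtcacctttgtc
ZNF69 held 8 CpGs and ZNF439 held 12.

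ZNF440 (ENSG00000171295) had 0, 1 and 0 control counts and 355, 730 and 320 KO counts, which is 15.5, 14.8 and 14.3 CPM in KO. The libraries of the genotypes were far apart, at a ratio of 1051 (interval 188 to 41530, edgeR adjusted p = 7.25e-22). ZNF700 (ENSG00000196757) had 1, 1 and 3 control counts, and rose from 0.0425, 0.0552 and 0.103 CPM to 14.4, 12.8 and 13.1 CPM. The log2 change was 7.47 (SE 0.22), with an edgeR adjusted p of 1.82e-21. In both genes the 3 KO libraries lay close together.

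ZNF441 (ENSG00000197044) stood at 7.81, 7.67 and 6.77 CPM in KO libraries with no control count, at least 177-fold higher (edgeR adjusted p = 6.7e-18). ZNF491 (ENSG00000177599) stood at 1.88, 1.89 and 1.78 CPM, at least 43.9-fold higher (edgeR adjusted p = 3.87e-12). ZNF433 (ENSG00000197647) stood at 3.45, 3.37 and 2.72 CPM, at least 76.3-fold higher (edgeR adjusted p = 3.69e-14). These 3 genes lie among the same run of the second block as ZNF69 and ZNF440, and no control library of any of them reached the lowest KO library. ZNF844 (ENSG00000223547) had 1 control count and stood at 4.19, 4.18 and 4.01 CPM in KO, a ratio of 293 (interval 52.3 to 11610, edgeR adjusted p = 3.15e-16). ZNF442 (ENSG00000198342) had 1 control count and stood at 2.71, 2.48 and 2.90 CPM in KO, a ratio of 186 (interval 33.1 to 7384, edgeR adjusted p = 7.17e-14). In both genes the single control count came from 1 library, and the KO libraries did not overlap the control libraries.

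ZNF563 (ENSG00000188868) had no control count and 107, 201 and 111 KO counts, or 4.67, 4.08 and 4.95 CPM. It was at least 104-fold higher (edgeR adjusted p = 1.44e-15). ZNF443 (ENSG00000180855), chosen after its values were seen because its promoter is the one most like that of ZNF563, was already present in control libraries, at 5.14, 5.91 and 5.67 CPM, and rose to 11.9, 10.96 and 11.4 CPM. Its log2 fold change was 1.03 (SE 0.093, edgeR adjusted p = 1.6e-10), and its libraries did not overlap between genotypes. The pair shared 238 of 300 bases (79.3%), printed on GRCh38.p14 (ZNF563 at chr19:12333584-12333883, minus strand, ZNF443 at chr19:12440972-12441271, minus strand) with each CpG in capitals, since like starts went with different control levels relative to KO.
ZNF563: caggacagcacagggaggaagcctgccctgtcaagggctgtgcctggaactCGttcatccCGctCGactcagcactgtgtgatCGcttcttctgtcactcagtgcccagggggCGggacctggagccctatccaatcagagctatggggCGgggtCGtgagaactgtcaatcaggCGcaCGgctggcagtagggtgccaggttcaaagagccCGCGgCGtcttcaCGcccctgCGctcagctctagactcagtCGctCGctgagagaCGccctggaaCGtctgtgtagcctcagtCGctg
ZNF443: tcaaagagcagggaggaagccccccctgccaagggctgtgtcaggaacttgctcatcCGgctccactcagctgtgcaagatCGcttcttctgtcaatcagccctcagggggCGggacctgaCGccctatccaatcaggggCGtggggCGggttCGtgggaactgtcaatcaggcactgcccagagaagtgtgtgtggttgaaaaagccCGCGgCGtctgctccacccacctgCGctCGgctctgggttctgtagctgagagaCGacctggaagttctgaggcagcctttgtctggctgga
ZNF563 held 19 CpGs and ZNF443 held 13.

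ZNF560 (ENSG00000198028) was the only member of the first block with no control count. It had 193, 369 and 178 KO counts, or 8.42, 7.49 and 7.93 CPM, at least 184-fold higher (edgeR adjusted p = 3.31e-18). It lies between ZNF266 and ZNF426, which both had counts in every control library. The last tested member with few control counts, ZNF20, stood at 0.786, 0.670 and 0.758 CPM in KO against 1 control count, a ratio of 50.8 (interval 8.83 to 2038, edgeR adjusted p = 3.87e-08). RefSeq also lists a readthrough of ZNF625 into ZNF20, and reads of overlapping genes cannot be assigned to one of them here.

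The 5 members that the filter on low counts removed were ZNF177, ZNF439, ZNF763, ZNF625 and ZNF709, named because they are few. ZNF763 had no control count and 2, 10 and 9 KO counts, at least 5.23-fold higher. ZNF709 had no control count and 13, 7 and 4 KO counts, at least 5.98-fold higher. ZNF625 had no control count and 1, 2 and 3 KO counts, at least 1.5-fold higher. In these 3 genes each KO library lay above the control libraries, at counts too low to give the size of a change. ZNF177 had 0, 1 and 0 control counts and 1, 4 and 2 KO counts, a ratio of 5.24 with an interval of 0.672 to 236, and its libraries overlapped. ZNF177 also has a readthrough with ZNF559.

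The 20 members with over 5 control counts had a median log2 fold change of 1.04, and 11 of them were at least 2-fold higher. The median was 1.24 over the 10 in the first block and 0.83 over the 10 in the second. The largest changes, singled out after the values were seen, were those of ZNF136, ZNF44 and ZNF699. ZNF136 rose from 1.02, 1.16 and 1.68 CPM to 9.78, 8.81 and 10.1 CPM (log2 fold change 2.83, SE 0.14). ZNF44 rose from 2.38, 2.21 and 2.47 CPM to 17.8, 15.1 and 14.1 CPM (log2 fold change 2.71, SE 0.12). ZNF699 rose from 3.31, 3.81 and 3.02 CPM to 18.7, 16.6 and 19.3 CPM (log2 fold change 2.44, SE 0.10). Their largest adjusted p by edgeR was 6.82e-16, and no control library reached a KO library. The smallest changes were those of ZNF558 (log2 fold change 0.25, edgeR adjusted p = 0.00314), ZNF627 (0.25, adjusted p = 0.0106) and ZNF317 (0.29, adjusted p = 3.53e-05). The median log2 change was 0.21 over the tested genes of chromosome 19 other than protein-coding genes with a ZNF symbol. After centring the chromosome on that median, these 3 members were no longer called and the other 27 remained so. ZNF627 also lost its call without the control library of replicate 2 or the KO library of replicate 3.

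ZNF564 (ENSG00000249709) was the only tested member not called. It stood at 0.255, 0.442 and 0.343 CPM in control and 0.524, 0.446 and 0.357 CPM in KO libraries. The genotypes overlapped, the log2 fold change was 0.38 (SE 0.36) and the edgeR adjusted p was 0.363. The gene had 24 control and 42 KO counts in all.

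The promoters were then searched for motifs. A promoter entry was found for 34 of 36 members (37 entries). Shares of members count genes with a motif in any of their entries, while shares of all promoters count single entries. The palindrome TGACGTCA, known as the binding letters of CREB and ATF factors, was in 5 of 34 members (14.7%) and in 1.85% of 35116 promoters. All 5, ZNF266, ZNF426, ZNF121, ZNF561 and ZNF562, lie in the first block and had over 5 control counts, and 0 of 23 members of the second block held it. Of the 12 members of the first block, 10 had over 5 control counts. Some of these promoters are alike, with 75.7% of bases identical between ZNF561 and ZNF562 and 72.0% between ZNF121 and ZNF561, so they are not independent cases. It is shown in capitals in 2 members with high control counts (ZNF121 at chr19:9584455-9584754, minus strand, and ZNF562 at chr19:9675051-9675350, minus strand, on GRCh38.p14), where it began 50 and 7 bases before the start.
ZNF121: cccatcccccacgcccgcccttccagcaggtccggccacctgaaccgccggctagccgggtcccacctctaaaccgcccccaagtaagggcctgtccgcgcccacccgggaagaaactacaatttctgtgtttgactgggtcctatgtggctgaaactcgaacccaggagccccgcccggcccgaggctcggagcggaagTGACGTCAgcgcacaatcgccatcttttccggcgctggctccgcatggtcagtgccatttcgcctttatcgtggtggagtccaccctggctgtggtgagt
ZNF562: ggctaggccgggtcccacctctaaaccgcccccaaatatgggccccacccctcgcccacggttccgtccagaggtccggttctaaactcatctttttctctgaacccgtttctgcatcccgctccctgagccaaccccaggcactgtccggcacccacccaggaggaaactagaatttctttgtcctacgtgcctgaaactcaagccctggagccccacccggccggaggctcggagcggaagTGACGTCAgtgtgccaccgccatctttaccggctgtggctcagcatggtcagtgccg
ZNF121 stood at 63.9, 63.7 and 61.4 CPM in control and 88.7, 82.4 and 83.0 CPM in KO libraries (log2 fold change 0.43, SE 0.048, edgeR adjusted p = 1.05e-08). ZNF562 stood at 35.0, 32.2 and 34.7 CPM and rose to 55.7, 51.2 and 54.4 CPM (log2 fold change 0.66, SE 0.055, edgeR adjusted p = 3.15e-11). In both genes every KO library lay above every control library. The members whose promoters are printed but that no rule named (ZNF439, ZNF443, ZNF121 and ZNF562) were chosen after their values were seen.

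The GC box GGGGCGGGG, the letters of SP-family factors, was in 17 of 34 members (50%) and 17 of their 37 entries, against 15.7% of all promoter entries. It was in 13 of 23 members of the second block and 4 of 11 of the first. By control level, it was in 10 of 15 members with at most 5 control counts and in 7 of 19 with more. Every motif was searched on both strands. AAGATGGC, the YY1 letters, was in 3 members (8.8%, all promoters 2.89%), namely ZNF121, ZNF561 and ZNF562. CCGGAAG, the ETS letters, was in 5 members (14.7%, all promoters 10.3%), and the NRF1 motif was in 2 (5.9%, all promoters 5.78%). TATAAA (all promoters 11.5%) and the core of the CTCF motif (all promoters 3.36%) were in 0 members. The 37 member entries held 4 to 34 CpGs with a median of 18, against 14 over all promoters. The median was 14 for the 15 entries of members with at most 5 control counts and 19 for the 22 entries of members with more. Matches describe letters in the window and not sites in use.

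The genes that lie between the members were taken as neighbours. Pseudogenes were left out of this set. Of 54 tested protein-coding and long noncoding RNA genes between ZNF558 and ZNF791 that are no members, 23 were higher (42.6%) and 11 lower. Their median log2 fold change was 0.07. In the gene-rich stretch between ZNF846 and ZNF653, 19 of 48 tested genes were higher (39.6%) and 11 lower, with a median of 0.06. Among the non-members with the largest increases were zinc finger genes and antisense transcripts inside the blocks. ZNF433-AS1 and ZNF878 had no control count and were at least 40.6-fold and 18.2-fold higher. The pseudogene ZNF788P, not among the 54, had 1 control count and 86 KO counts. ZNF561-AS1 had a log2 fold change of 2.04 (edgeR adjusted p = 1.64e-10). Whether the counting used strand is not given in the sources used here, so antisense transcripts cannot be told apart from ZNF433 and ZNF561. MUC16, a mucin gene between ZNF558 and ZNF317, rose by 5.19 on the log2 scale (edgeR adjusted p = 2.78e-14). ICAM1, an adhesion molecule in the stretch between the blocks, rose by 2.45 (edgeR adjusted p = 5.31e-09). OLFM2 fell by 1.14 on the log2 scale (edgeR adjusted p = 2.75e-06) and S1PR5 fell by 1.12 (edgeR adjusted p = 1.69e-05). These genes were named after their values were seen.

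**Figure D2:**
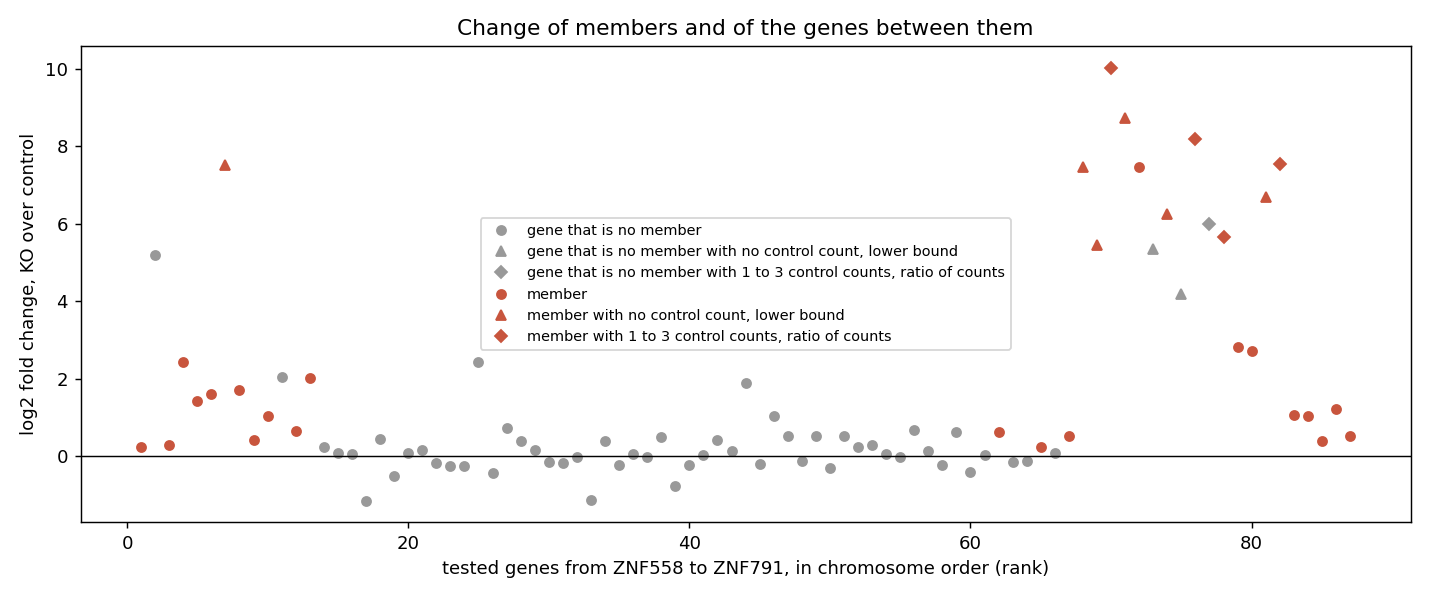
Log2 fold change (KO over control) of every tested gene from ZNF558 to ZNF791 in chromosome order, members in red and other genes in grey, with triangles for lower bounds of genes with no control count and diamonds for ratios of counts of genes with 1 to 3 control counts. The 48 genes of the stretch between the blocks lie on both sides of 0 (median 0.06, 19 called higher and 11 lower), and every red point lies above 0.

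Other zinc finger genes give the setting. Of 202 tested zinc finger genes elsewhere on chromosome 19, 184 were higher (91.1%) and 4 lower, with a median log2 fold change of 1.73, beside 1.72 for the members. Of 234 on other chromosomes, 120 were higher (51.3%) and 35 lower, with a median of 0.19. Of 904 tested genes of chromosome 19 that are not protein-coding genes with a ZNF symbol, 455 were higher (50.3%) and 123 lower. This set can hold zinc finger pseudogenes, antisense transcripts and zinc finger genes with other symbols. In the 19p12 cluster 35 of 35 tested genes were higher, with a median of 8.93, and 17 had no control count. In 19q13.41 35 of 35 were higher, with a median of 5.81, and 3 had no control count. At least 2-fold higher were 82.9% in 19p12 and 88.6% in 19q13.41, beside 71% of the tested members. Tested genes with no control count passed the filter only through their KO libraries, and their fitted changes give no size. They numbered 23 of the 202 genes elsewhere on chromosome 19 and 6 of the 31 tested members. The shares and medians of these groups are therefore a description. Whether the members differ from these clusters was not tested. The genes of the KRAB, TRIM28 and SETDB1 pathway did not move one way, with 11 of 27 higher, 11 lower and 5 not called. TRIM28, the KRAB corepressor, stood at 599 ± 39.8 CPM in control and 575 ± 26.8 CPM in KO (SD, n = 3), with a log2 fold change of -0.06 (edgeR adjusted p = 0.301). That of ZNF274 was 2.10 (SE 0.054, edgeR adjusted p = 8.03e-23), from 19.5, 19.1 and 20.4 CPM to 84.8, 83.6 and 85.1 CPM. ATF7IP, a partner that stabilises SETDB1, rose by 2.21 (edgeR adjusted p = 1.96e-24), and the HP1 genes CBX5 and CBX3 changed by 0.46 and -0.46 (edgeR adjusted p = 5.18e-11 and 4.79e-10).

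H3K9me3 was then compared over the window. A single peak list per feature and genotype was used, so peak values have no replicate error, and their 95% Wilson intervals cover counting error only. H3K9me3 peaks went from 108 in control to 11 in KO cells, and the covered length from 1692 kb (43.4% of the window) to 48.5 kb (1.24%). Over the whole genome the number of peaks also fell, from 102976 to 53949 (0.524 times). The covered share of the genome went the other way, from 11.3% to 20.5%. Of the 108 control peaks, 6 (5.56%, 2.57 to 11.6) had an overlapping KO peak, against 39.97% genome-wide, where 60.0% of control peaks had none. The widest control peak in the window spanned 240 kb (chr19:12232108-12472172, GRCh37), and no KO peak overlapped the bins it covers. The widest KO peak was 21.6 kb (chr19:9054063-9075651). Of the 11 KO peaks, 2 had no control peak, where 56.3% of KO peaks genome-wide had none. Peaks were not assigned to genes, since the gene coordinates used here are on another build.

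In 100 kb bins, H3K9me3 coverage was lower in KO by at least 20 percentage points in 19 of 39 bins (48.7%) and higher by that much in 0. Over all bins of the genome these shares were 8.08% and 23.0%. The 19 bins are those with control coverage of at least 50%, and they formed 3 runs. The first is a single bin at chr19:8900001-9000000, with 55.3% in control and 7.25% in KO. The second, 7 bins at chr19:9200001-9900000, went from a mean of 91.1% to 1.06%. The third, 11 bins at chr19:11700001-12800000, went from 83.4% to 0.137%. The bin at chr19:9000001-9100000 kept most of its coverage, 38.3% in control and 30.7% in KO, and holds the widest KO peak. All 19 bins ended under 10% coverage in KO. Of 157 other bins of chromosome 19 with at least 50% in control, 57.3% did so, and of all 1056 other such bins of the genome, those of chromosome 19 included, 34.9% did. Their mean coverage went from 85.7% to 24.1% and from 67.0% to 50.6%. These differences between sets of bins were not tested.

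**Figure D3:**
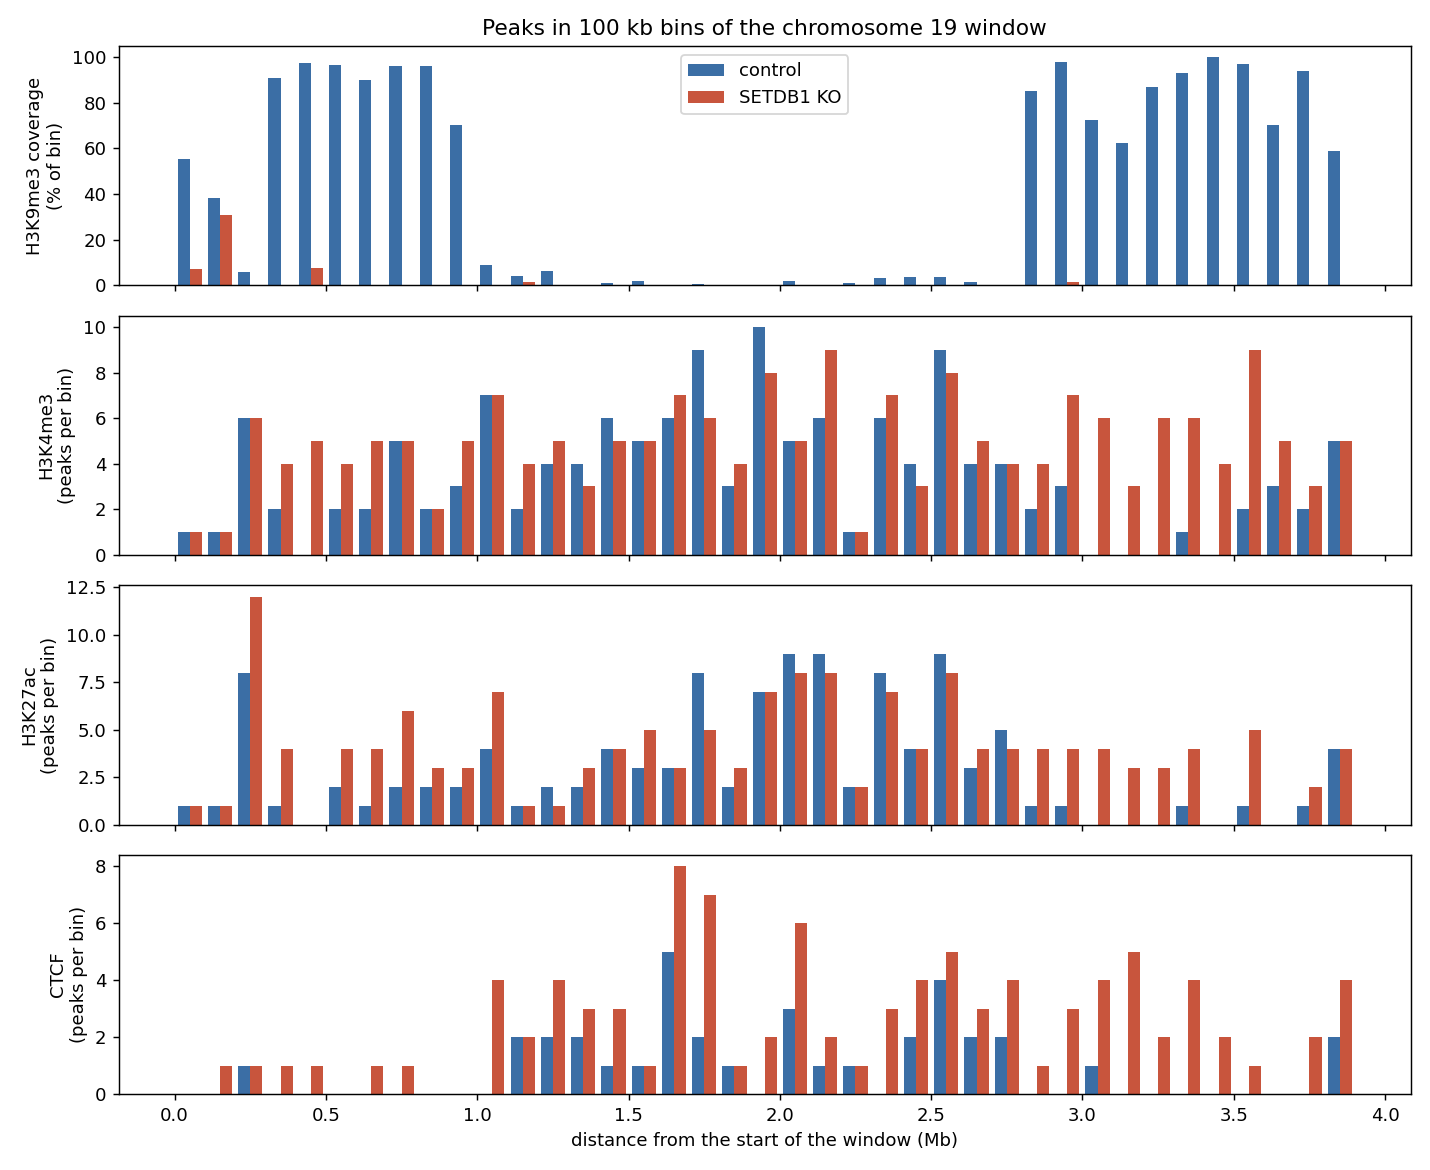
H3K9me3 coverage in percent of each 100 kb bin, and the number of H3K4me3, H3K27ac and CTCF peaks per bin, along the window, with control in blue and KO in red. The tall blue H3K9me3 bars at both sides have almost no red beside them. In most of these bins the red bars of H3K4me3 and H3K27ac exceed the blue ones. Red bars of CTCF exceed blue ones along most of the window.

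H3K4me3, a mark of active promoters, went from 137 to 192 peaks in the window (1.40 times, genome 1.22 times). H3K27ac, a mark of active promoters and enhancers, went from 114 to 155 peaks (1.36 times, genome 1.06 times). In the 19 bins rich in control H3K9me3, H3K4me3 peaks went from 35 to 89 and H3K27ac peaks from 20 to 58. In the other 20 bins they went from 102 to 103 and from 94 to 97. The 157 other bins of chromosome 19 rich in control H3K9me3 moved the same way, with H3K4me3 going from 253 to 720 peaks and H3K27ac from 154 to 533. Within the run at chr19:11700001-12800000, H3K4me3 went from 18 to 58 and H3K27ac from 9 to 33 peaks, and in the run at chr19:9200001-9900000 from 16 to 30 and from 10 to 24. The increase in peaks of both marks lay almost wholly in the bins that had carried H3K9me3.

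Peaks found only in KO were set against control H3K9me3 peaks. Of the 192 H3K4me3 peaks in KO, 68 had no control peak, as did 30.2% genome-wide. Of these 68, 58 (85.3%, 75.0 to 91.8) overlapped a control H3K9me3 peak, as did 27 of the 124 shared peaks (21.8%, 15.4 to 29.8). The same held for 39 of 66 H3K27ac peaks found only in KO (59.1%, 47.0 to 70.1) and for 18 of 89 shared ones (20.2%, 13.19 to 29.7), where 31.3% of KO peaks genome-wide had no control peak. Genome-wide, 20.2% of H3K4me3 and 16.6% of H3K27ac peaks found only in KO overlapped control H3K9me3, which covered 11.3% of the genome and 43.4% of the window.

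H3K27me3, the Polycomb mark, went from 39 to 42 peaks and from 60.8 to 144 kb in the window, 2.38 times the length, while its genome-wide length went to 0.768 times. Of the 42 KO peaks, 27 had no control peak (genome 29.0%), and 21 of these 27 overlapped control H3K9me3 (77.8%, 59.2 to 89.4), as did 14 of the 15 shared peaks, 19 of the 21 control peaks with no KO peak (90.5%, 71.1 to 97.3) and 21.0% of the peaks found only in KO genome-wide. Its coverage stayed small beside the H3K9me3 lost: 5.04% of the 19 bins in KO and 2.05% in control. In the 157 other such bins of chromosome 19 it went from 12.99% to 22.8%. The bin at chr19:9300001-9400000 had the most, 36.9% in KO and 8.82% in control. Next was the bin at chr19:9000001-9100000, which is not among the 19 and kept most of its H3K9me3, with 33.4% in KO and 7.76% in control. Coverage did not rise in every bin: at chr19:12500001-12600000 it went from 4.27% to 0%.

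CTCF, the insulator protein that marks many domain boundaries, went from 35 to 97 peaks, 2.77 times, against 1.44 times genome-wide. Of the 35 control peaks, 1 had no KO peak, against 44.1% genome-wide. Of the 97 KO peaks, 63 had no control peak, where 61.4% of KO peaks genome-wide had none. In the 19 bins rich in control H3K9me3, CTCF peaks went from 3 to 32, and in the other 20 bins from 32 to 65, so the increase was found in both. In the 157 other bins of chromosome 19 rich in control H3K9me3 they went from 349 to 309. Of the 63 peaks found only in KO, 30 (47.6%, 35.8 to 59.7) overlapped control H3K9me3, as did 1 of 34 shared peaks (2.94%, 0.521 to 14.9). Genome-wide, 15.9% of CTCF peaks found only in KO did. Control H3K9me3 covered 43.4% of the window and 11.3% of the genome, so 47.6% is near the covered share of the window.

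The deposited compartment score, which is signed by bin and whose orientation is not given in the sources used here, had a value in all 4 Hi-C replicates for 9 of 39 bins (23.1%), against 87.2% of all bins. Of the 19 bins rich in control H3K9me3, 1 had a value in all 4, so these bins are thinly covered. Of the 9 bins, 5 were higher and 1 lower in KO (limma adjusted p under 0.05), where 21.5% and 37.3% of all tested bins were. The median difference was 0.15, but 0.021 without control replicate 2 and 0.282 without control replicate 1. The number of lower bins was 3 without control replicate 2 and 0 without KO replicate 1. The bin at chr19:12700001-12800000, the last of the window, stood at -0.25 and -0.37 in control and at 1.19 and 1.17 in KO replicates. It was the only one of the 9 to change sign, by 1.49 (limma adjusted p = 8.99e-09), as 5.87% of all tested bins did from negative to positive. In 4 further bins control replicate 2 alone of the controls had a value. It was above 0 in 1 of them (0.633, chr19:10100001-10200000) and below 0 in the other 3, at -0.505 (chr19:9200001-9300000), -1.39 (chr19:11800001-11900000) and -1.56 (chr19:12400001-12500000). The KO values in these 3 bins were all above 0, at 0.360 and 0.445 in the first, 0.725 from a single replicate in the second, and 0.658 and 0.822 in the third. In all, 22 bins had a value in both KO replicates, and all 22 were above 0 in both. Most of the 22 lie in the stretch chr19:9900001-11700000, where every control value present was also above 0. The share of all bins above 0 in both KO replicates is not given here.

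**Figure D4:**
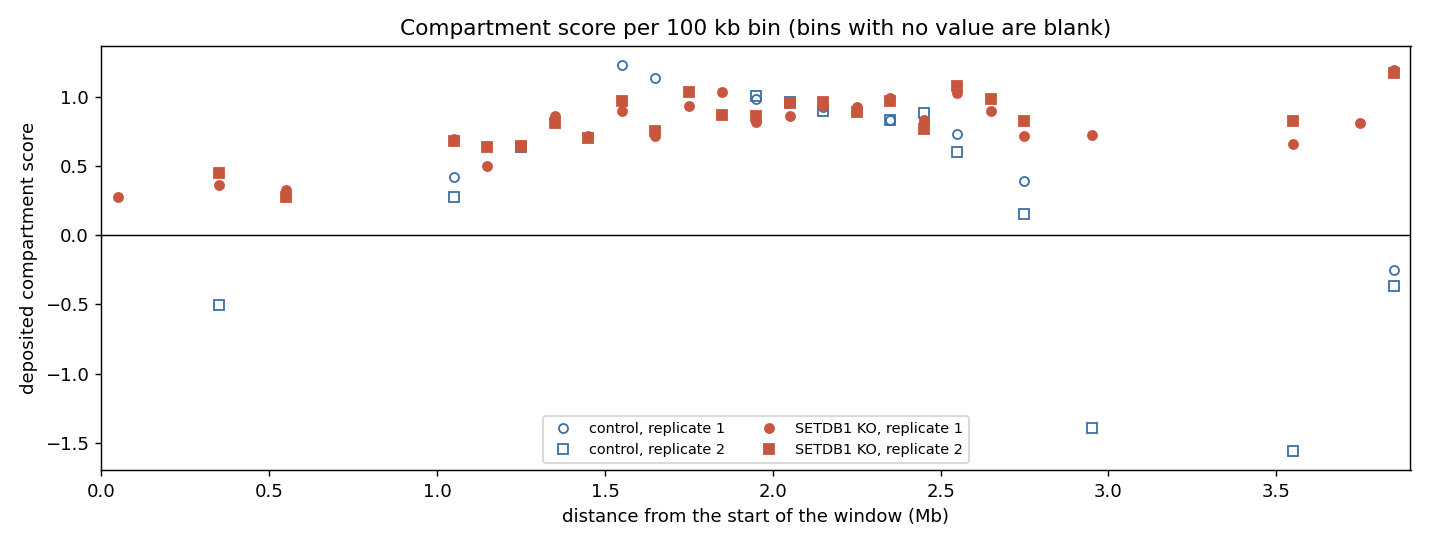
Deposited compartment score of each 100 kb bin along the window, with open symbols for the 2 control and filled symbols for the 2 KO replicates, and circles and squares for replicates 1 and 2. Control values below 0 occur only in bins with control H3K9me3 on at least 50%, and every KO value lies above 0.

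Topologically associating domains (TADs), stretches of chromatin that contact themselves more than their surroundings, had 12 boundaries in control and 14 in KO within the window. A boundary of the other list lay within 1 bin of 20 kb for 11 of the control and 11 of the KO boundaries. These numbers were 10 and 10 in the same bin, and 12 and 12 within 2 bins. The control list gave 1 TAD of 1080 kb (chr19:11700001-12780000) over nearly all of the H3K9me3-rich run at chr19:11700001-12800000. In KO most of this stretch was listed as TADs of 500 kb (chr19:11760001-12260000) and 520 kb (chr19:12260001-12780000). The KO TAD before them ended at 11740000, past the control boundary at 11700000. That boundary, found only in control, had 1 KO and 0 control CTCF peaks within 1 bin. Of the boundaries found only in KO, the one at position 12260000 had 2 KO and 0 control CTCF peaks within 1 bin, while those at 11740000 and 11760000 had none in either. The H3K9me3-rich run at chr19:9200001-9900000 lay mostly in a TAD of 660 kb (chr19:9240001-9900000) in both genotypes.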

How the data were processed

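The series was used for RNA-seq counts, peak lists, TAD lists and a compartment table; inputs were not used here. The deposited count table gives whole-number counts per gene, and libraries used a stranded total RNA kit, per the labels. The deposited compartment table holds a signed score per 100 kb bin for each replicate. Peak and TAD lists hold positions on hg19 (GRCh37), 1 list per genotype. Histone chromatin was cut with MNase and CTCF chromatin was sonicated, per the labels. STAR 2.6.1c, Bowtie2 2.2.3, SAMtools 1.5, Picard, MACS2 and edgeR 3.30.0 are listed, per the submitters' processing notes; how each was used is not given in the sources used here. The KO H3K4me3 libraries carry a mark label that lacks a digit and were grouped by the rest of their labels. All columns of the tables were mapped to samples (0 left over).

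Of 62486 gene identifiers, 58599 (93.8%) matched a symbol. Counts were fitted over the whole table with edgeR 4.0.16 in R 4.3.3 (TMM, filterByExpr, robust quasi-likelihood test, genotype as the only term), with Benjamini-Hochberg adjustment over all 17767 genes tested and a threshold of 0.05. CPM used TMM-scaled library sizes. Each SE was derived from the test, as the absolute log2 fold change divided by the square root of its F statistic. Compartment scores were fitted with limma 3.58.1 over 26503 bins. Peaks overlapped by at least 1 bp were called shared. RefSeq tables on GRCh38.p14 gave names, gene order and promoters, aligned with Biopython 1.88. On simulated counts for 17638 genes the fit recovered 89.6% of 192 tested genes changed 2-fold, with 3.37% of calls false. On 5000 simulated bins, 1000 of them shifted by 0.5, the compartment fit recovered 100%, with 3.66% of calls false. No pair of libraries agreed within sampling noise (chi-square per degree of freedom 1.67 to 6.94), so none was merged.

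Genes named by rule were SETDB1, TRIM28, ZNF274, the 10 called members with the largest fitted change, and any member lower or tested and not called; exceptions are stated. The members and lists were chosen with earlier results of these data known. Alternatives were 3 scalings, 2 filters, the DESeq2 1.42.0 test, limma voom, blocking on the replicate number, each replicate left out, wider peaks, reciprocal overlap and a longer window.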

Additional observations from a re-analysis of the deposited data

How the results depend on the processing

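Across all alternatives run, 0 members were called lower and no tested member had a fold change below 0. The 30 called members all remained so under upper quartile, DESeq2 and library-size scaling, the DESeq2 test and limma voom. Without the filter on low counts 33 members were called, with ZNF439, ZNF763 and ZNF709 added, and with a mean of at least 1 CPM 28 were, as ZNF491 and ZNF20 were no longer tested. Leaving out 1 library gave 29 to 31 called members and 22 to 23 at least 2-fold higher, with ZNF439 tested and called in 4 of these fits. Centring chromosome 19, chosen after seeing the data, left 27 and 19. TRIM28 was called lower in that fit (-0.27, edgeR adjusted p = 1.86e-05) and without the control library of replicate 1 (-0.11, edgeR adjusted p = 0.0246). Fitted changes that rest on 1 control count moved with that library: ZNF440 went from 9.64 to 11.77 without control replicate 2 and 9.02 without control replicate 3, ZNF442 from 7.15 to 9.23 without control replicate 1 and 6.54 without control replicate 3, and ZNF844 from 7.79 to 9.82 without control replicate 3.

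Same-numbered libraries were not paired: the correlations of their deviations were 0.11, 0.064 and 0.047, and -0.0026 for Hi-C. With the replicate block 30 members were higher, 22 at least 2-fold, 11655 genes changed in all, and 5 compartment bins were higher and 1 lower, so it changed no call of a member or bin count.

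Leaving out 1 Hi-C replicate gave 4 to 7 bins higher, 0 to 3 lower, 1 to 3 going from negative to positive, and a median of 0.021 (without control replicate 2) to 0.282 (without control replicate 1); 3 bins lower came without control replicate 2, 0 without KO replicate 1, and 3 sign changes without control replicate 1. With the window longer by 500 kb at each end, 9 bins were higher, control H3K27ac covered 274 kb and H3K4me3 376 kb (213 peaks), control CTCF had 60 peaks over 16.2 kb, and the shares of KO peaks with a control peak were 65.9% for H3K27ac and 73.7% for H3K4me3. Among the wider 50% of each list, control and KO lists held 69 and 3 H3K9me3 peaks, 88 and 123 H3K4me3 peaks, 39 and 64 H3K27ac peaks, 7 and 16 H3K27me3 peaks, and 15 and 44 CTCF peaks. Control then covered 21.3 kb for H3K27me3, 91.2 kb for H3K27ac and 4.73 kb for CTCF, whose KO peaks covered 16.7 kb. The shared percentages were 100% of KO H3K9me3 peaks, 28.6% of control and 12.5% of KO H3K27me3 peaks, 48.4% of KO H3K27ac peaks, 96.6% of control H3K4me3 peaks, and 73.3% of control and 25.0% of KO CTCF peaks. With a reciprocal overlap of 50%, the shared H3K9me3 peaks were 1.85% of control and 18.2% of KO peaks, those of H3K4me3 77.4% and 55.2%, those of H3K27ac 61.4% and 45.2%, and those of H3K27me3 12.8% and 11.9%. Shorter lists, a stricter overlap and a longer window lower or raise these values by construction. Of 447 alternative values, 402 kept their direction and their side of the threshold or, for values with no test, stayed within 1.5 times or their interval; the moves of ZNF440, ZNF442 and ZNF844 above are among these, since size was not judged for tested fold changes.

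The H3K9me3-rich bins hold few compartment values, peak and TAD lists have no replicates, and members with few counts give no size of change.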
